A study of Mus musculus with 3 samples.

Results

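The genes described here encode 50 enzymes and partner proteins that write, read or erase DNA methylation and histone marks in mouse granulocyte progenitors. They were chosen by symbol from a named list, with earlier results of these data known. All 50 were found among the 24421 gene symbols measured in each library. RNA was sequenced from granulocyte progenitors, the bone marrow cells committed to making neutrophils, in 3 libraries with 1 per group. The first group, IRF8-deficient, came from female C57BL/6 (H-2b) mice lacking IRF8, a transcription factor that favours monocytes and dendritic cells over granulocytes. The second, 4T1-TB, came from female F1 semi-syngeneic (H-2b/d) mice bearing 4T1 tumors, which grow from a mouse mammary carcinoma cell line. The third, NTB, came from female mice of that F1 background with no tumor. All cells were sorted by flow cytometry from bone marrow. The labels give no ages, no name for the Irf8 allele and no number of mice behind a library. Strain moved with genotype, so in every comparison of IRF8-deficient with NTB or 4T1-TB the effects of the 2 cannot be told apart. With 1 library per group there was no replicate error and no test, and every statement below is about these 3 libraries.

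DNA methyltransferases add methyl groups to cytosine, mostly at CG positions, and TET dioxygenases oxidise those groups as a step towards their removal. Histone tails are marked by methyltransferases, acetyltransferases and deiminases, and the marks are taken off by demethylases and deacetylases. Polycomb complexes place and read repressive marks, and several of these genes, Dnmt3a, Tet2, Asxl1 and Ezh2 among them, are known for recurrent mutations in myeloid disease.

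The measurement was RPKM, reads per kilobase of gene scaled to library size, as deposited. Summed reads recovered from these values were 37287748 in IRF8-deficient, 24376063 in 4T1-TB and 44210541 in NTB. Irf8 stood at 13.7 RPKM in IRF8-deficient, 8.61 RPKM in 4T1-TB and 43.8 RPKM in NTB. It was 3.18-fold lower in IRF8-deficient than in NTB (95% counting interval 3.00 to 3.39) on 1232 remaining reads, and 1.60-fold higher in IRF8-deficient than in 4T1-TB (1.45 to 1.76). Which bases the Irf8 allele lacks is not stated in the labels, so these reads check the label only in part. All 11 granulocyte progenitor markers were above 5 RPKM in every library, with summed levels of 10699, 21024 and 17642 RPKM in IRF8-deficient, 4T1-TB and NTB. They did not move together. Cd34, a marker of early progenitors, had 5.41 RPKM in IRF8-deficient, 8.73 RPKM in 4T1-TB and 36.9 RPKM in NTB, while Cebpe and Fcgr3 were 3.30-fold and 2.72-fold higher in IRF8-deficient than in NTB. The part of these differences in the results below was not tested. Markers of T and NK cells and of erythroid cells were below 1 RPKM in all 3 libraries, with 5, 6 and 3 of 7 erythroid markers at 0 in IRF8-deficient, 4T1-TB and NTB, and Cd79b was the sole B cell marker of 6 above that level. The globin genes Hba-a1, Hbb-bs and Hbb-bt had 0 reads in every library, so whether they could be counted is not known. The 5 eosinophil, basophil and mast cell markers summed to 9.74 RPKM in IRF8-deficient, 21.0 RPKM in 4T1-TB and 20.2 RPKM in NTB. Most of that was Mcpt8, and Prg2 was past 2-fold lower in IRF8-deficient and in 4T1-TB than in NTB. Library composition differed. The ribosomal precursor Rn45s took 13.3% of reads in IRF8-deficient, 6.07% in 4T1-TB and 1.72% in NTB, and the library size behind the RPKM was 0.7, 0.911 and 1.01 times the summed reads of those libraries. The part of this in the results below was not tested beyond the scaling alternatives given with them.

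The chromatin enzyme genes were expressed throughout. Their median level was 18.0 RPKM in IRF8-deficient, 16.8 RPKM in 4T1-TB and 18.6 RPKM in NTB, against medians of 12.5, 12.1 and 12.1 RPKM over the 10658 genes that reached 1 RPKM in at least 1 library. Of the 50 genes, 48 reached that level and were compared, and 47 reached it in every library. Hdac9 and Padi2 were below 1 RPKM in all 3. The plot of levels shows most genes with their 3 libraries close together and a few, led by Padi4 and Kdm7a, spread far apart.

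**Figure D1:**
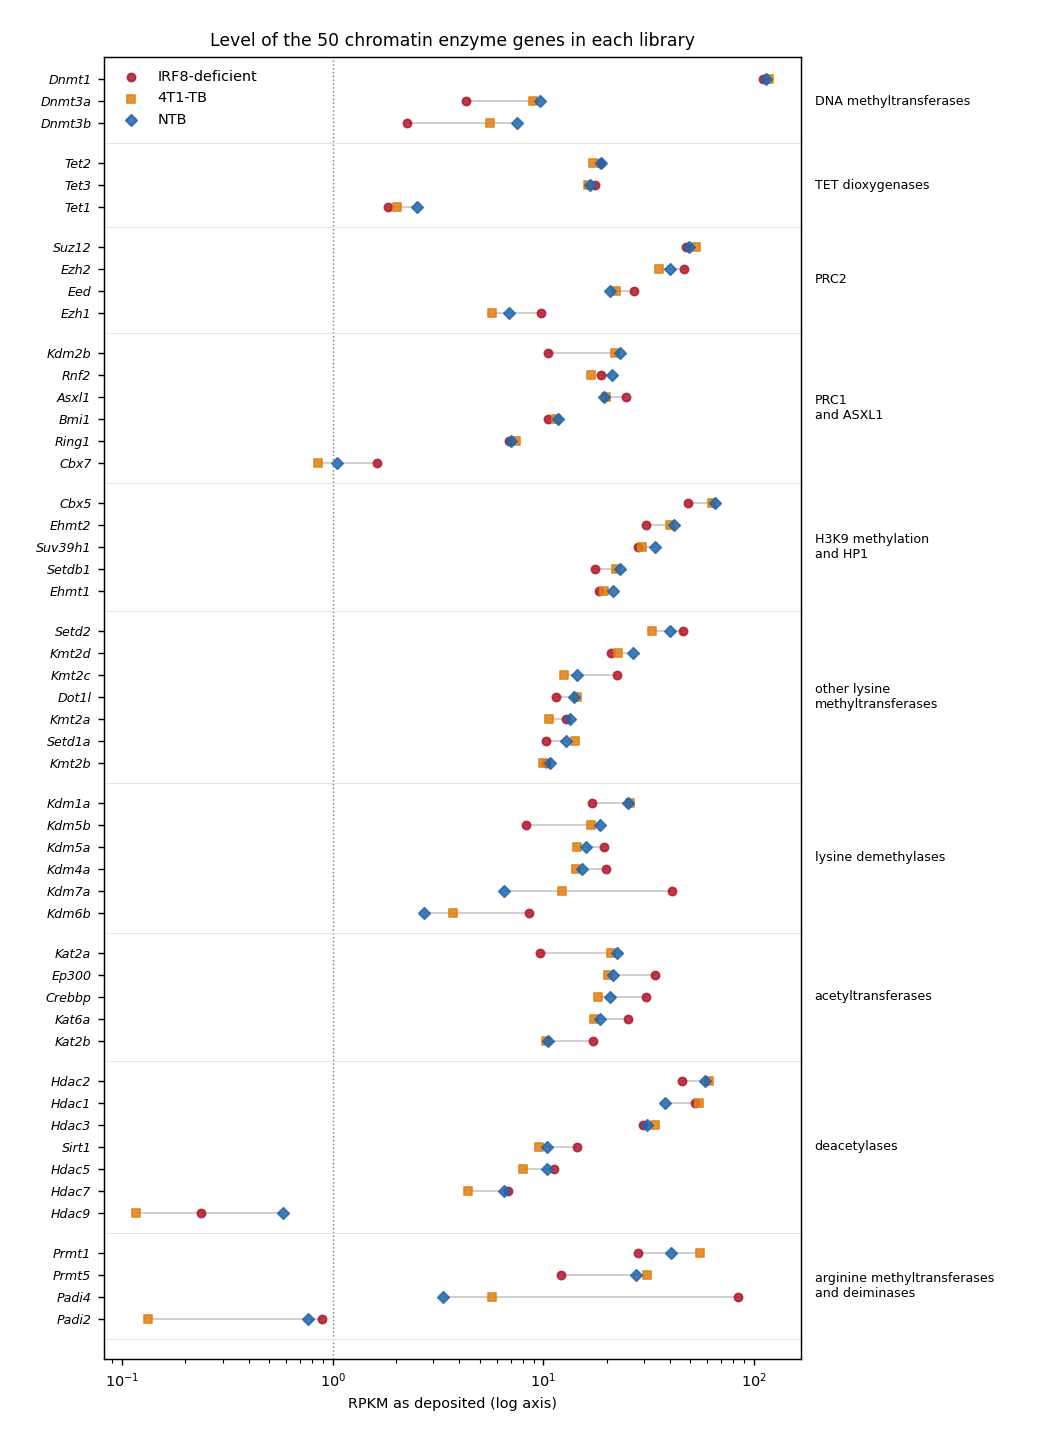
RPKM of the 50 genes (log axis) in the IRF8-deficient, 4T1-TB and NTB libraries, grouped by role, with 1 point per library and a dotted line at 1 RPKM. Padi4 spans 3.32 to 84.2 RPKM and Kdm7a 6.54 to 40.8 RPKM, while Dnmt1 lies between 111 and 118 RPKM in all 3 libraries.

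In IRF8-deficient against NTB, 9 of the 48 genes lay past 2-fold, 3 upwards and 6 downwards. A gene was counted at a difference of 1 in log2(RPKM + 1), a scale that understates the change of low genes. Padi4, Kdm7a and Kdm6b were higher, against a background of 8.78% of all genes compared. Dnmt3a, Dnmt3b, Kdm2b, Kdm5b, Kat2a and Prmt5 were lower, against a background of 5.73%. The higher genes made up 6.25% and the lower ones 12.5% of the 48. How the lower share compares with its background depended on the setting. With a pseudocount of 0.1, 6 of the 48 were lower against 10% of all genes compared. Without the 20 highest genes it was 6 against 8.74%, and with scaling by summed reads 8 against 17%. As deposited, the median difference was -0.04 log2 units over the 48 genes and -0.02 over all genes compared. Nearest to the 2-fold limit on the inside was Dnmt3a at -1.01, and median ratio scaling took it below. With a pseudocount of 5, which damps differences at low levels, 0 of the 6 lower genes kept their call. In these bulk libraries, fewer cells of a type and less RNA per cell cannot be told apart.

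In 4T1-TB against NTB, none of the 48 genes was 2-fold higher or lower, against backgrounds of 1.67% higher and 1.35% lower. Differences ran from -0.48 for Hdac7 to 0.81 for Kdm7a, with a median of -0.08 against 0.01 over all genes compared. In total 16 genes were above 0 and 32 below, or 33.3% above against 51.0% of all genes compared. Scaled by summed reads, which moved the median of all genes compared to -0.13, 6 genes were above 0 and 42 below. Counting error alone was small at this depth: the 95% interval of the ratio, from recovered reads, excluded 1 for 36 of the 48 genes, 75.0% against 68.7% of all genes compared. The shares were 89.6% against 84.4% in IRF8-deficient against NTB, and 85.4% against 82.6% in IRF8-deficient against 4T1-TB. These intervals cover counting error and say nothing of variation between mice.

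In IRF8-deficient against 4T1-TB, Padi4, Kdm7a and Kdm6b were 2-fold higher, against a background of 8.83%, and Dnmt3b, Kat2a and Prmt5 2-fold lower, against 7.07%. Kdm2b at -0.99, Prmt1 at -0.95, Kdm5b at -0.94 and Dnmt3a at -0.90 lay just short of the limit on log2(RPKM + 1). As plain ratios Kdm2b was 2.08-fold, Dnmt3a 2.07-fold and Kdm5b 2.02-fold lower than in 4T1-TB, and Prmt1 1.96-fold lower. The comparisons share libraries in pairs, so their values are given side by side and not counted as repeats.

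**Figure D2:**
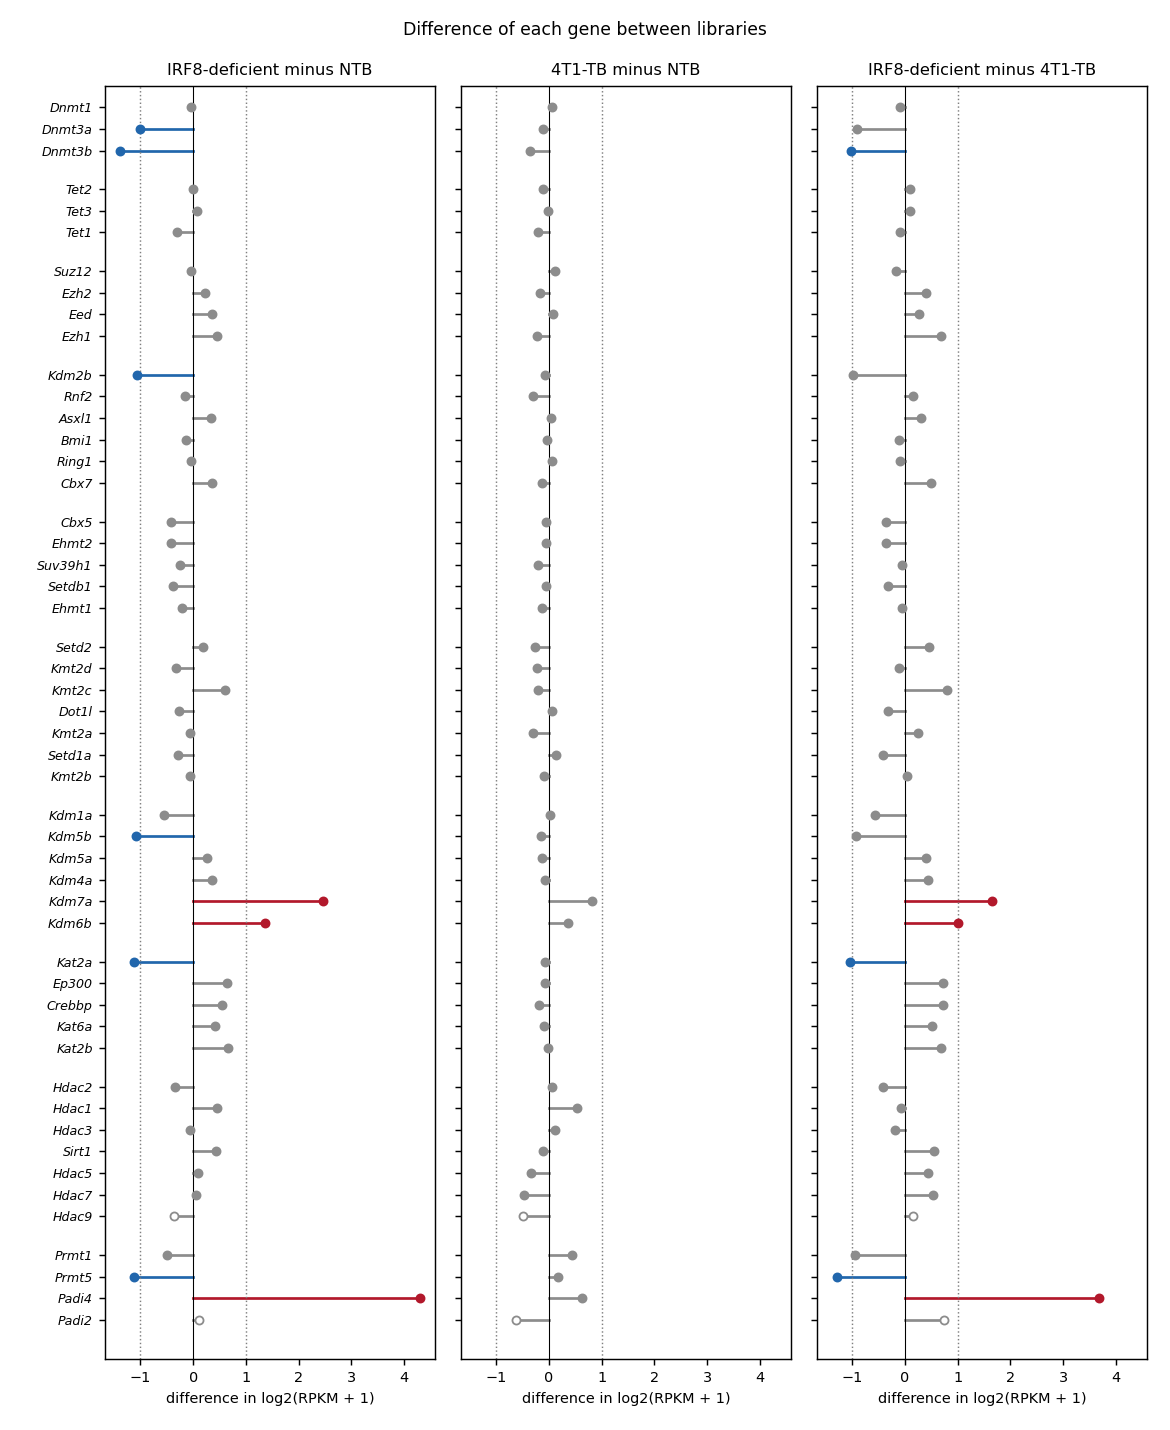
Difference in log2(RPKM + 1) for each gene in IRF8-deficient minus NTB, 4T1-TB minus NTB and IRF8-deficient minus 4T1-TB. Dotted lines mark the 2-fold limit, red and blue points lie past it, and open points are the 2 genes below 1 RPKM in every library. No point of 4T1-TB minus NTB passes the limit.

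**Figure D3:**
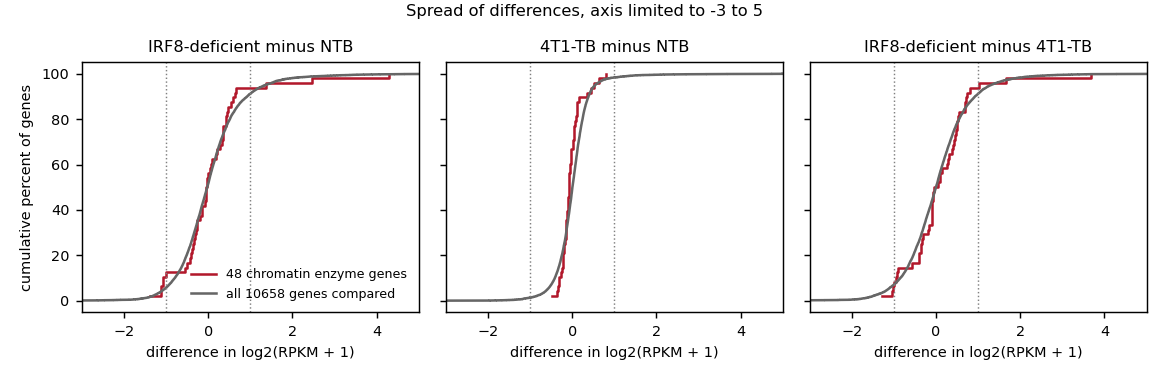
Cumulative percent of genes by difference in log2(RPKM + 1), for the 48 genes (red) and all 10658 genes compared (grey), with dotted lines at the 2-fold limit. The curves run close together in all 3 comparisons, with medians of -0.04 and -0.02 in IRF8-deficient minus NTB.

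Among the DNA methyltransferases, the maintenance enzyme Dnmt1 was level across the libraries and the de novo enzymes Dnmt3a and Dnmt3b were lower in IRF8-deficient. Dnmt1, which copies methylation to the new strand after replication, had 111.0 RPKM in IRF8-deficient, 118.2 RPKM in 4T1-TB and 114.2 RPKM in NTB. It was the highest of the 50 genes in each library. Dnmt3a (chr12:3806007-3914443, plus strand, mm10) had 4.30 RPKM in IRF8-deficient, 8.91 RPKM in 4T1-TB and 9.68 RPKM in NTB. That was 2.25-fold lower in IRF8-deficient than in NTB (95% counting interval 2.10 to 2.40). Dnmt3b (chr2:153649450-153687730, plus strand) had 2.25 RPKM in IRF8-deficient, 5.60 RPKM in 4T1-TB and 7.47 RPKM in NTB. It was 3.32-fold lower in IRF8-deficient than in NTB (2.91 to 3.81) and 2.49-fold lower than in 4T1-TB (2.14 to 2.90). Both de novo enzymes had their lowest level in IRF8-deficient, and Dnmt3b was also 1.33-fold lower in 4T1-TB than in NTB. Uhrf1, which brings Dnmt1 to newly copied DNA, had 84.4, 111 and 98.1 RPKM in IRF8-deficient, 4T1-TB and NTB.

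No TET gene passed the 2-fold limit. Tet2, the highest of them in NTB, had 18.6 RPKM in IRF8-deficient, 17.3 RPKM in 4T1-TB and 18.8 RPKM in NTB. Tet3 lay within 16.3 to 17.5 RPKM. Tet1 was far lower than both, with 1.83 RPKM in IRF8-deficient, 2.03 RPKM in 4T1-TB and 2.50 RPKM in NTB.

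The core of Polycomb repressive complex 2, which methylates lysine of histone H3 for repression, had no gene past 2-fold in any comparison. The scaffold subunit Suz12 had 47.5 RPKM in IRF8-deficient, 53.3 RPKM in 4T1-TB and 49.1 RPKM in NTB. The catalytic subunit Ezh2 had 46.6 RPKM in IRF8-deficient, 35.3 RPKM in 4T1-TB and 39.9 RPKM in NTB, and its paralog Ezh1 9.74, 5.69 and 6.89 RPKM in those libraries. The subunit Eed had 26.9 RPKM in IRF8-deficient, 22.1 RPKM in 4T1-TB and 20.8 RPKM in NTB. Ezh1 was 1.71-fold higher in IRF8-deficient than in 4T1-TB (1.54 to 1.90). Ezh1 and Ezh2 were highest in IRF8-deficient and lowest in 4T1-TB as deposited. The direction against NTB rests on the scaling: the median of the 4 genes in IRF8-deficient against NTB was 0.29 log2 units as deposited and -0.23 when libraries were scaled by their summed reads, which moved the median of all genes compared to -0.49.

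In the PRC1 group, Kdm2b stood apart. Kdm2b (chr5:122870665-122989823, minus strand), a demethylase that also brings a variant PRC1 complex to CG-rich DNA, had 10.5 RPKM in IRF8-deficient, 21.9 RPKM in 4T1-TB and 23.2 RPKM in NTB. It was 2.21-fold lower in IRF8-deficient than in NTB (2.08 to 2.34), and 16.2% of its exon bases overlap other genes, partly on the opposite strand, which the counting may not separate. Ring1 and Rnf2, the paired ubiquitin ligases of the complex, stayed within 6.85 to 7.42 RPKM and 16.8 to 21.1 RPKM. Cbx7, a reader of the Polycomb mark, was near 1 RPKM, with 1.61 RPKM in IRF8-deficient, 0.856 RPKM in 4T1-TB and 1.05 RPKM in NTB. Bmi1, a PRC1 subunit needed for stem cell renewal, lay within 10.6 to 11.8 RPKM, and Asxl1, a cofactor of histone deubiquitination, within 19.5 to 24.7 RPKM.

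All 5 genes of H3K9 methylation and HP1 were lower in IRF8-deficient than in NTB, and lower in 4T1-TB than in NTB, without reaching 2-fold. Their differences ran from -0.42 to -0.21 log2 units in IRF8-deficient against NTB, with a median of -0.39, and from -0.21 to -0.05 in 4T1-TB against NTB. Of all 10658 genes compared, 5492 and 5220 were below 0 in these 2 comparisons. The counting interval of the Setdb1 ratio in 4T1-TB against NTB, 0.909 to 1.004, included 1. Cbx5, which encodes the heterochromatin protein HP1 alpha, was the highest, with 48.8 RPKM in IRF8-deficient, 63.2 RPKM in 4T1-TB and 65.4 RPKM in NTB. The methyltransferases Ehmt1 and Ehmt2, which act as a pair, had 18.4 and 30.8 RPKM in IRF8-deficient, 19.3 and 40.0 RPKM in 4T1-TB, and 21.4 and 41.7 RPKM in NTB. Suv39h1 and Setdb1, further H3K9 methyltransferases, lay within 28.3 to 34.1 RPKM and 17.6 to 23.3 RPKM.

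None of the 7 other lysine methyltransferases passed 2-fold. Setd2, which methylates histone H3 along transcribed genes, was the highest of them in NTB, with 46.0 RPKM in IRF8-deficient, 33.0 RPKM in 4T1-TB and 40.0 RPKM in NTB. Kmt2b, the lowest in NTB, lay within 9.93 to 10.7 RPKM. The enhancer enzymes Kmt2c and Kmt2d differed in pattern. Kmt2c had 22.4 RPKM in IRF8-deficient, 12.5 RPKM in 4T1-TB and 14.5 RPKM in NTB, highest in IRF8-deficient. Kmt2d had 21.0 RPKM in IRF8-deficient, 22.7 RPKM in 4T1-TB and 26.6 RPKM in NTB, lowest in IRF8-deficient. Kmt2a, a regulator of Hox genes, and Dot1l, a methyltransferase of the nucleosome core, lay within 10.6 to 13.4 RPKM and 11.5 to 14.5 RPKM. Setd1a had 10.4 RPKM in IRF8-deficient, 14.1 RPKM in 4T1-TB and 12.8 RPKM in NTB. For Setd1a 53.7% of the exon bases overlap other genes, so its level is uncertain.

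The lysine demethylases held genes past 2-fold in both directions. Kdm7a (chr6:39136623-39206789, minus strand), which removes repressive methyl groups from histone H3, had 40.8 RPKM in IRF8-deficient, 12.2 RPKM in 4T1-TB and 6.54 RPKM in NTB. It was 6.24-fold higher in IRF8-deficient than in NTB (5.98 to 6.50) and 3.34-fold higher than in 4T1-TB (3.20 to 3.49). In 4T1-TB it was 1.87-fold higher than in NTB (1.770 to 1.971), the largest difference of the 48 genes in that comparison. Kdm7a ranked 9 of 50 by level in IRF8-deficient and 43 in NTB.

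Kdm6b (chr11:69398508-69413675, minus strand), which removes the Polycomb methyl mark, had 8.58 RPKM in IRF8-deficient, 3.74 RPKM in 4T1-TB and 2.72 RPKM in NTB. It was 3.16-fold higher in IRF8-deficient than in NTB (2.90 to 3.44) and 2.29-fold higher than in 4T1-TB (2.08 to 2.53). Its order was the same as that of Kdm7a, with 4T1-TB between the other libraries, though 4.3% of its exon bases overlap other genes. The overlap was 3.0% for Kdm7a. Further genes overlap too, among them Eed at 12.6%, Suv39h1 at 11.1% and Setdb1 at 6.95%. Scaling by summed reads took Kdm6b below 2-fold in both comparisons, as did a pseudocount of 5, and Kdm7a stayed above it.

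Kdm5b (chr1:134560171-134635285, plus strand), which removes active methyl marks, ran the other way, with 8.29 RPKM in IRF8-deficient, 16.8 RPKM in 4T1-TB and 18.7 RPKM in NTB. It was 2.26-fold lower in IRF8-deficient than in NTB (2.12 to 2.40). Its paralog Kdm5a had 19.5 RPKM in IRF8-deficient, 14.5 RPKM in 4T1-TB and 16.0 RPKM in NTB. The highest demethylase in NTB was Kdm1a, a partner of the granulocyte repressor Gfi1, with 17.0 RPKM in IRF8-deficient, 25.8 RPKM in 4T1-TB and 25.4 RPKM in NTB. It was 1.49-fold lower in IRF8-deficient than in NTB. Kdm4a, which acts on trimethylated H3K9, lay within 14.4 to 19.9 RPKM.

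Of the acetyltransferases, Kat2a was lower in IRF8-deficient and the other 4 genes were higher there as deposited, short of 2-fold. Kat2a (chr11:100704746-100712465, minus strand), a subunit of the SAGA coactivator, had 9.64 RPKM in IRF8-deficient, 21.0 RPKM in 4T1-TB and 22.3 RPKM in NTB. It was 2.31-fold lower in IRF8-deficient than in NTB (2.14 to 2.51) and 2.18-fold lower than in 4T1-TB (2.00 to 2.38). Its paralog Kat2b had 17.2 RPKM in IRF8-deficient, 10.4 RPKM in 4T1-TB and 10.5 RPKM in NTB. The general coactivators Crebbp and Ep300 had 30.6 and 34.0 RPKM in IRF8-deficient, 18.1 and 20.3 RPKM in 4T1-TB, and 20.8 and 21.5 RPKM in NTB. Kat6a, a fusion partner in myeloid leukemia, lay within 17.4 to 25.2 RPKM. Scaled by summed reads, 3 of the 5 genes were above 0 in IRF8-deficient against NTB, with the median of all genes compared at -0.49. Relative to that median 4 of 5 were above it, as they were with the deposited values.

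The deacetylases showed no gene past 2-fold among the 6 compared. Hdac2, highest in NTB, had 45.6 RPKM in IRF8-deficient, 60.9 RPKM in 4T1-TB and 58.6 RPKM in NTB. Its paralog Hdac1 had 52.5 RPKM in IRF8-deficient, 55.1 RPKM in 4T1-TB and 37.9 RPKM in NTB, and was 1.45-fold higher in 4T1-TB than in NTB (1.38 to 1.53). As deposited, Hdac1 was lowest in NTB and Hdac2 lowest in IRF8-deficient. Scaled by summed reads, Hdac1 differed by -0.06 log2 units in IRF8-deficient against NTB, against 0.46 as deposited. Of the rest, Hdac3 lay within 29.8 to 34.0 RPKM, Hdac5 within 8.01 to 11.2 RPKM, Hdac7 within 4.41 to 6.82 RPKM and Sirt1, a deacetylase that uses NAD, within 9.52 to 14.4 RPKM. Hdac9, the lowest in NTB and outside the comparison, had 0.236, 0.116 and 0.581 RPKM in IRF8-deficient, 4T1-TB and NTB. On 28 reads in 4T1-TB and 283 in NTB, it was 5.01-fold lower in 4T1-TB (3.39 to 7.68).

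The arginine enzymes held the largest difference of the 50 genes, in Padi4. Padi4 (chr4:140745865-140774236, minus strand) encodes a deiminase that turns arginine of histones into citrulline and is known for its part in neutrophil extracellular traps. It had 84.2 RPKM in IRF8-deficient, 5.68 RPKM in 4T1-TB and 3.32 RPKM in NTB, from 5803, 333 and 393 reads. Padi4 was 25.3-fold higher in IRF8-deficient than in NTB (22.9 to 28.1) and 14.8-fold higher than in 4T1-TB (13.3 to 16.6). In 4T1-TB it was 1.71-fold higher than in NTB (1.47 to 1.98). By level it ranked 2 of the 50 genes in IRF8-deficient and 45 in NTB.

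Markers of later neutrophils were also higher in IRF8-deficient. All 12 were at least 2-fold higher in IRF8-deficient than in NTB, with summed levels of 40360 RPKM in IRF8-deficient, 1445 RPKM in 4T1-TB and 1442 RPKM in NTB, and none was at 0 in any library. In 4T1-TB 7 of the 12 were 2-fold higher than in NTB. The part of more mature cells in the levels of Padi4, Kdm7a and the other genes was not tested. The 8 monocyte markers summed to 107, 50.9 and 122 RPKM in IRF8-deficient, 4T1-TB and NTB, and did not move together. Against NTB, 1 was 2-fold higher and 2 were 2-fold lower in IRF8-deficient, and 0 were higher and 5 lower in 4T1-TB. Of 12 proliferation genes none passed 2-fold in any comparison, but they too moved in both directions. In IRF8-deficient against NTB they ran from Mcm3, 1.51-fold lower, to Mki67, 1.94-fold higher.

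Padi2, whose gene lies near Padi4 on chromosome 4, had 0.893 RPKM in IRF8-deficient, 0.132 RPKM in 4T1-TB and 0.760 RPKM in NTB, below 1 RPKM throughout. Padi2 was 6.74-fold higher in IRF8-deficient than in 4T1-TB (3.85 to 12.7), the direction of Padi4. In 4T1-TB it was 5.74-fold lower than in NTB (3.32 to 10.7), opposite to Padi4, on 14 reads in 4T1-TB and 162 in NTB. The ratio of IRF8-deficient to NTB was 1.175, with an interval that included 1 (0.915 to 1.506). Prmt5 (chr14:54507187-54517525, minus strand), which places symmetric methyl groups on arginine, had 12.1 RPKM in IRF8-deficient, 31.0 RPKM in 4T1-TB and 27.5 RPKM in NTB. It was 2.27-fold lower in IRF8-deficient than in NTB (2.10 to 2.45) and 2.56-fold lower than in 4T1-TB (2.35 to 2.78). Prmt1, the enzyme behind most asymmetric arginine methylation, had 28.3 RPKM in IRF8-deficient, 55.5 RPKM in 4T1-TB and 40.6 RPKM in NTB. Both methyltransferases were lowest in IRF8-deficient and highest in 4T1-TB.

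The promoters of 3 genes are shown because these gave the largest difference upwards (Padi4), the next one (Kdm7a) and the largest downwards against 4T1-TB (Prmt5). Each window holds 300 bases, 250 before and 50 after the RefSeq start, on GRCm38.p6, written on the strand of the gene from 5′ to 3′. Capitals mark every CG, and in Padi4 also the motifs TATAAA and CACGTG. The windows are chr4:140774154-140774453 for Padi4, chr6:39206724-39207023 for Kdm7a and chr14:54517421-54517720 for Prmt5, all on the minus strand.
Padi4: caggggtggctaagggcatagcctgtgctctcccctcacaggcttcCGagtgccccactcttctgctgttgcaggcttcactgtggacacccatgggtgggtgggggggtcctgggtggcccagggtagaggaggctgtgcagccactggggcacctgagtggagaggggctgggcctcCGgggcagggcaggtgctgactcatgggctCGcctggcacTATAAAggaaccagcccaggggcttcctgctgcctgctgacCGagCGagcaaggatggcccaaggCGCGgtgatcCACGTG
Kdm7a: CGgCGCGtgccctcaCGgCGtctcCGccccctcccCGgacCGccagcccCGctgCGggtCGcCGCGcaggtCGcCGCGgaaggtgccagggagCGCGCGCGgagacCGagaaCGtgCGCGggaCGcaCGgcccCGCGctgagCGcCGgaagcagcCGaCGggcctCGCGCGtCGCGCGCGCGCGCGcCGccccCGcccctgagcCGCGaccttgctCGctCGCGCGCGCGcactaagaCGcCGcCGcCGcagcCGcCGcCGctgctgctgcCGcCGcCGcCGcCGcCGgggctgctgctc
Prmt5: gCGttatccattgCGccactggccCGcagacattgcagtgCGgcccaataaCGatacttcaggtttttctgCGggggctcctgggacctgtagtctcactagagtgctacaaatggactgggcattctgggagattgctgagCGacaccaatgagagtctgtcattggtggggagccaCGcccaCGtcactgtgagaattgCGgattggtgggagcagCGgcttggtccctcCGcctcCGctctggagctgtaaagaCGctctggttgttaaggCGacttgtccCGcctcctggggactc
The windows differ in base composition. Kdm7a holds 65 CG and 82.7% G or C, Prmt5 16 CG and 58.0%, and Padi4 8 CG and 66.3%.

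RefSeq windows were found for 44 of the 50 genes, and 35 had a single window. The median number of CG was 30 in those 35, against 7 over all 32851 windows of 27025 genes. Padi4 had the fewest of the 35. It also held the one TATAAA among them, a sequence near that of the classical TATA box, 31 to 26 bases before the start. CACGTG lay 45 to 50 bases after it. Among all 59 windows of the 44 genes TATAAA was in 2, the other being an Hdac9 window with 0 CG. It is on either strand in 13.6% of all windows. CACGTG, the E-box bound by Myc among others, was in 5 of the 35 windows, 14.3% against 7.15% of all windows. TTGCNNAA, a pattern bound by C/EBP factors, was in 1, that of Setdb1, against 10.8% of all windows. The 10-base patterns bound by IRF proteins alone (GAAA, any 2 bases, GAAA) or with the factor PU.1 (GGAA, any 2 bases, GAAA) were in none of the 35, against 3.44% and 2.72%. These are letter matches on both strands, and a window without one says nothing of binding.

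Ratios between paralogs within a library do not depend on the library size. Over the 10 pairs, 1 ratio differed by more than 1.5-fold in 4T1-TB against NTB and 5 in IRF8-deficient against NTB. In 4 pairs the higher gene of the pair was another one in IRF8-deficient than in NTB. No such share was taken over other gene pairs, so these counts are not read as a trait of the enzymes. Of all single genes compared, 1.67% were 2-fold higher and 1.35% lower in 4T1-TB against NTB. In IRF8-deficient against NTB the shares were 8.78% and 5.73%. Kat2a over Kat2b was 0.561 in IRF8-deficient, with a 95% counting interval of 0.515 to 0.609, against 2.03 in 4T1-TB (1.87 to 2.20) and 2.13 in NTB (2.01 to 2.25). Kdm5a over Kdm5b was 2.35 in IRF8-deficient, 0.863 in 4T1-TB and 0.856 in NTB, and Kmt2c over Kmt2d was 1.07, 0.551 and 0.545. In these 3 pairs the 4T1-TB and NTB ratios lay close together and the IRF8-deficient ratio on the other side of 1.

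Hdac1 over Hdac2 was graded instead, with 1.15 in IRF8-deficient, 0.904 in 4T1-TB and 0.647 in NTB. Dnmt3a over Dnmt3b was 1.92 in IRF8-deficient (1.67 to 2.20), 1.59 in 4T1-TB (1.45 to 1.75) and 1.29 in NTB (1.22 to 1.38). Padi4 over Padi2 was 94.2 in IRF8-deficient (78.1 to 115), 42.9 in 4T1-TB (25.2 to 79.3) and 4.37 in NTB (3.63 to 5.28). That pair was the one past 1.5-fold in 4T1-TB against NTB, with Padi2 below 1 RPKM throughout and at 14 reads in 4T1-TB. The ratios of Ezh1 to Ezh2, Ring1 to Rnf2, Ehmt1 to Ehmt2 and Crebbp to Ep300 differed by less than 1.5-fold in each comparison.

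**Figure D4:**
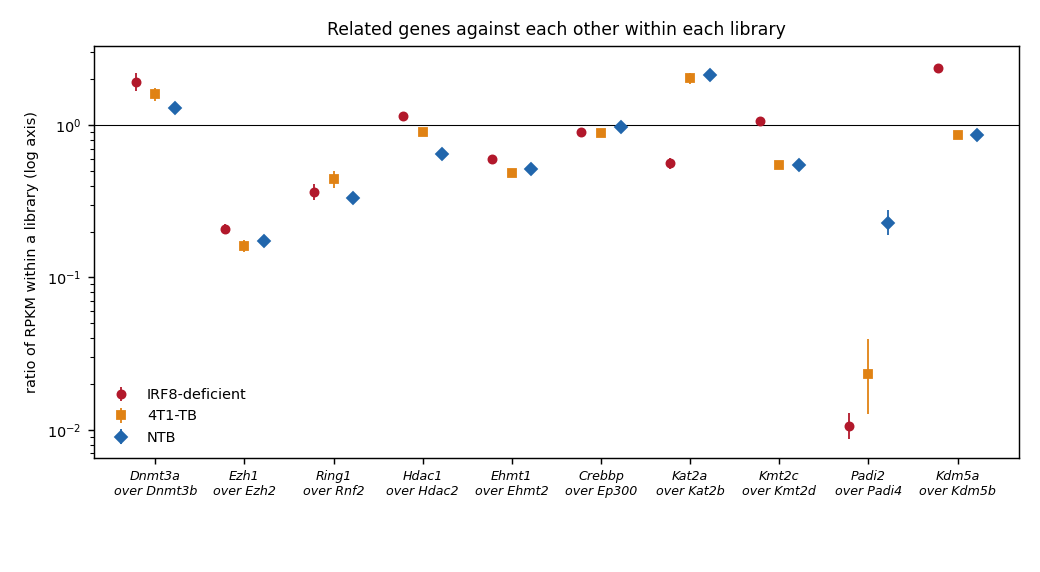
Ratio of RPKM between paired genes within the IRF8-deficient, 4T1-TB and NTB libraries (log axis), with exact 95% counting intervals, many of them smaller than the points. Padi2 is drawn over Padi4, the inverse of the ratio in the text. Kat2a over Kat2b, Kdm5a over Kdm5b, Kmt2c over Kmt2d and Hdac1 over Hdac2 lie on opposite sides of 1 in IRF8-deficient and NTB.

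Among 94 related chromatin genes outside the list, 86 were compared. None was 2-fold higher or lower in 4T1-TB than in NTB. In IRF8-deficient against NTB 1 was higher, or 1.16% against the background of 8.78%, and 5 were lower, or 5.81% against 5.73%, a share near the background. Phf1, an accessory subunit of Polycomb repressive complex 2, was the higher one, with 7.32 RPKM in IRF8-deficient, 2.63 RPKM in 4T1-TB and 2.83 RPKM in NTB. The lower ones were the Polycomb reader Cbx6, the methyltransferases Smyd2 and Smyd5, and the arginine methyltransferases Prmt3 and Prmt7. Prmt7 had 7.12 RPKM in IRF8-deficient, 20.4 RPKM in 4T1-TB and 20.6 RPKM in NTB, Prmt3 had 9.90, 20.9 and 24.4 RPKM, and Smyd2 had 6.66, 22.8 and 19.8 RPKM in those libraries. Smyd5 had 5.33, 13.4 and 15.0 RPKM, and Cbx6 1.46, 3.83 and 5.80 RPKM in IRF8-deficient, 4T1-TB and NTB. Each of these 5 was thus lowest in IRF8-deficient.

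Against 4T1-TB, IRF8-deficient had 4 related genes past 2-fold upwards, or 4.65% against 8.83% of all genes compared, and 5 downwards, or 5.81% against 7.07%. Neither share was above the background. Phf1 was again past 2-fold, with the PRC1 subunits Phc1 at 4.31, 1.42 and 2.17 RPKM and Cbx8 at 8.77, 3.65 and 4.84 RPKM in IRF8-deficient, 4T1-TB and NTB. The coactivator Ncoa1 had 14.0 RPKM in IRF8-deficient, 5.38 RPKM in 4T1-TB and 7.54 RPKM in NTB. Smyd2, Smyd5, Prmt3 and Prmt7 were lower, joined by the PRC1 subunit Pcgf6 with 2.04, 5.32 and 4.89 RPKM in those libraries. Scaling by summed reads left 0 of the 86 related genes past 2-fold upwards and 14 downwards in IRF8-deficient against NTB. Of all genes compared, 4.22% were then higher and 17% lower. Against 4T1-TB the counts were 0 upwards and 12 downwards, with 4.57% and 13.6% of all genes compared. Phf1, Phc1, Cbx8 and Ncoa1 thus lost their calls.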

How the data were processed

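RNA of sorted granulocyte progenitors was measured in 3 libraries, 1 per group, and groups follow the mouse model in the labels. The deposited values are RPKM made by the authors. Tools named, per the submitters' processing notes, include TopHat2 2.0.13, the mm10 build, HTSeq 0.6.1 and edgeR 3.12.1, with CASAVA 1.8.2 and cutadapt 1.2.1 beside them. No source used here gives the annotation, the strand use or how library sizes were formed.

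Differences were taken on log2(RPKM + 1) over genes of at least 1 RPKM in 1 or more libraries, and called at 2-fold. Whole reads were recovered from RPKM ratios: implied lengths were whole within 0.05 bases for 99.9% of 15158 genes, and 88.4% of 14553 lengths lay within 0.8 to 1.25 of GENCODE M21. For 10 of the 50 genes reads and length were multiplied by a whole factor chosen with that reference. Intervals are exact Clopper-Pearson. Coordinates are from GENCODE M21 (mm10). The steps were tested on simulated data. Members and lists were chosen with earlier results of these data known. Genes named are those past 2-fold, the highest and lowest of each role group in NTB, paralog partners, related genes past 2-fold, and Irf8. The other members are given by their range. Uhrf1, Suv39h2, Cbx1, Cbx3, Padi3, Carm1, Prmt6, Mki67 and Mcm3 were named after their values were seen. Python 3.11.15, scipy 1.17.1 and pandas 2.3.3 were used.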

Additional observations from a re-analysis of the deposited data

How the results depend on the processing

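No paired analysis was possible because each group had 1 library. The settings tried were a pseudocount of 0.1 or 5, a 4-fold call, a call that also needs the counting interval to exclude 1, no filter, a minimum of 5 RPKM, and scaling by median ratios, by summed recovered reads or without the 20 highest genes. In 4T1-TB against NTB the median difference was -0.19 without the 20 highest genes and -0.22 scaled by summed reads, and no setting gave a call. In IRF8-deficient against NTB the count of lower genes was 0 at pseudocount 5 and 0 at 4-fold, and the median was -0.23 without the 20 highest genes and -0.54 by summed reads. In IRF8-deficient against 4T1-TB the count of lower genes was 6 at pseudocount 0.1, 1 at pseudocount 5, 5 without the 20 highest genes, 7 by summed reads and 0 at 4-fold. The count of higher genes there was 1 at 4-fold, and the median was -0.31 by summed reads. Summed reads gave 2 higher and 8 lower genes in IRF8-deficient against NTB, where all genes compared split 450 higher to 1814 lower, against 936 and 611 as deposited. In IRF8-deficient against 4T1-TB that split was 487 to 1448, against 941 and 754 as deposited, and in 4T1-TB against NTB 147 to 182, against 178 and 144. Without the 20 highest genes it was 723 to 932 in IRF8-deficient against NTB and 156 to 177 in 4T1-TB against NTB. Padi4 and Kdm7a stayed past 2-fold against both libraries under every pseudocount, scaling and filter run, Padi4 at 3.42 to 4.62 and Kdm7a at 1.95 to 2.62 log2 units against NTB. Dnmt3a lost its call at pseudocount 5 and under median ratio scaling, Kdm6b at pseudocount 5 and by summed reads, and against 4T1-TB also without the 20 highest genes. Of 1002 values of single genes under alternatives, 719 moved by less than the margin of their counting interval on either side, and 283 by more. The 719 include 144 values without a filter and 138 at a minimum of 5 RPKM, which could not move because a filter changes no value. Summed reads moved 134 values and left 10, and leaving out the 20 highest genes moved 96 and left 48. A pseudocount of 5 moved 42, a pseudocount of 0.1 moved 11 and median ratio scaling 0. In total 43 of the 1002 values changed sign, each of a gene short of 2-fold, and 0 of the values past 2-fold did.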

Other observations

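Across the 48 genes, the difference in 4T1-TB against NTB was lower in longer genes, with Spearman's rho of -0.33 against -0.20 over all genes compared, and the median gene length was 4958 against 3066 bases. In IRF8-deficient against NTB rho was 0.11 against 0.05. These are descriptions across genes of the same libraries, and genes are not independent replicates.

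Padi3, a further deiminase gene, had 0.662 RPKM in IRF8-deficient, 0.088 RPKM in 4T1-TB and 0.015 RPKM in NTB. Carm1 and Prmt6, arginine methyltransferases short of the call on log2(RPKM + 1), had their lowest level in IRF8-deficient. Carm1 had 6.42, 13.4 and 12.0 RPKM, and Prmt6 3.37, 5.99 and 6.09 RPKM in IRF8-deficient, 4T1-TB and NTB. These genes were picked after their values were seen. Levels of Prmt2, Padi1 and Padi6 are not given, so no statement is made about the families. As a plain ratio Carm1 was 2.09-fold lower in IRF8-deficient than in 4T1-TB, and it passed the call in that comparison without the 20 highest genes and by summed reads.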
